A study of Homo sapiens with 4 samples.

Results

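The miR-17-92 cluster is a set of 6 miRNA hairpins that lie side by side in the transcript of MIR17HG, a host gene for miRNAs. Its mature products were followed through pull-downs made with probes against circHIPK3, a circular RNA formed from exon 2 of HIPK3. The members were 10 mature arms of these hairpins, chosen by name, and all 10 were among the 2656 mature miRNAs listed in the deposited counts. The small RNA libraries came from RD, an established human cell line of embryonal rhabdomyosarcoma, a tumour with skeletal muscle features, and the cells were untreated. Lysates were incubated with biotinylated antisense probes and captured on streptavidin beads. The 4 libraries were a pull-down with the EVEN probes, a pull-down with the ODD probes, a pull-down with probes against the bacterial LacZ mRNA, and the input lysate. EVEN and ODD are separate probe sets against the same exon, human cells make no LacZ mRNA, and each library stands for 1 biological replicate. The probe sequences and the recovery of circHIPK3 were not analysed here, and the exon also belongs to linear HIPK3 RNA.

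The cluster is transcribed as 1 primary RNA, which MYC activates, and is cut by Drosha and Dicer into guide arms, which are loaded into Argonaute, and passenger arms, which are mostly degraded. The guides of miR-17 and miR-20a restrain cell cycle inhibitors and E2F factors, and the cluster is known as an oncogenic miRNA locus. In rhabdomyosarcoma the locus is known for gains in a part of the alveolar subtype, which is not the subtype of RD.

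The mature sequences are shown because the members fall into groups by the seed, bases 2 to 8 from the 5′ end, which guides target recognition. The sequences are from RefSeq on GRCh38.p14, 5′ to 3′, with the seed in capitals, and all 10 members matched. The prefix hsa-, which marks a human miRNA, is left out after this list.
hsa-miR-17-5p: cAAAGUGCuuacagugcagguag
hsa-miR-20a-5p: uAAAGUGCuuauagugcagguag
hsa-miR-18a-5p: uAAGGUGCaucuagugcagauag
hsa-miR-19a-3p: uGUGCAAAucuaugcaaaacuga
hsa-miR-19b-3p: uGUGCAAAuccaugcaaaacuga
hsa-miR-92a-3p: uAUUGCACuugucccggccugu
hsa-miR-17-3p: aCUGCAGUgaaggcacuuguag
hsa-miR-18a-3p: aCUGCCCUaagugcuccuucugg
hsa-miR-19b-1-5p: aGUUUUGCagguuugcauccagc
hsa-miR-92a-1-5p: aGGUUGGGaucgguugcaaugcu

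The first 6 lines are the usual guide arms and the last 4 the passenger arms. miR-17-5p and miR-20a-5p share a seed and differ by C1U and C12U, counted from the 5′ end. miR-19a-3p and miR-19b-3p share a seed and differ by U11C. miR-18a-5p differs from miR-18b-5p, a paralog encoded on chromosome X, by A20U. miR-19b-1-5p shares its seed with miR-19a-5p and miR-19b-2-5p. The seeds of miR-17-3p, miR-18a-3p and miR-92a-1-5p were found in no other listed miRNA with a sequence. For the arm ratios the partner arms miR-19a-5p and miR-20a-3p, which are not members, were read from the same file.

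The hairpins lie on the plus strand of chromosome 13 of GRCh38, between MIR17 at 91350605 to 91350688 and MIR92A1 at 91351314 to 91351391, in the order MIR17, MIR18A, MIR19A, MIR20A, MIR19B1 and MIR92A1. MIR17HG spans 91347820 to 91354579 in GENCODE release 29. All 6 hairpins are in an exon of 2 of its 3 annotated transcripts and in an intron of the other. The hairpins of miR-17 and miR-18a carry the results that follow and are printed with the mature arms in capitals.
MIR17: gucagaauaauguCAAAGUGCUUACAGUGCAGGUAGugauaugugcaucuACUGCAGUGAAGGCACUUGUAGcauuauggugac
MIR18A: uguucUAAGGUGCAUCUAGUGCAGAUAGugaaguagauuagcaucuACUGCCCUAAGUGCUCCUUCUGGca

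The libraries held 98950 miRNA reads for EVEN, 426450 for ODD, 425395 for LacZ and 2987858 for the input. A member at 0 reads may therefore still take up to 30.3 CPM (a count scaled to a common library total) in EVEN, 7.03 in ODD, 7.05 in LacZ and 1.00 in the input, by a floor of 3 reads. With 1 library per group there is no spread between replicates and no test. The 95% exact intervals and floors below cover counting error only, and each difference is between libraries, not between conditions. EVEN and ODD are set against the same LacZ library, and all pull-downs against the same input. The 4 skeletal muscle markers miR-1-3p, miR-133a-3p, miR-133b and miR-206 were present in all 4 libraries and took 10.4% of EVEN, 3.50% of ODD, 6.70% of LacZ and 6.21% of input reads. The 4 blood markers summed to 212 CPM in EVEN, 30.5 in ODD, 65.8 in LacZ and 38.2 in the input, with miR-451a at 0 reads in all 4. The 5 epithelial markers summed to 273 CPM in EVEN, 856 in ODD, 621 in LacZ and 166 in the input. Most of that sum in the pull-downs was miR-205-5p, at 202 CPM in EVEN, 832 in ODD, 489 in LacZ and 1.34 in the input. The liver marker miR-122-5p had 0 reads in EVEN and ODD, 6 in LacZ and 11 in the input. Of the 2 neuronal markers miR-124-3p had 1 input read, while miR-9-5p had 10059 CPM there. The part of these markers in the results was not tested.

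The cluster as a whole made up 13.8% of EVEN reads (95% exact binomial interval 13.6 to 14.0), 2.99% of ODD reads (2.94 to 3.04), 5.66% of LacZ reads (5.59 to 5.73) and 11.5% of input reads (11.5 to 11.6). The EVEN library was the highest and the ODD library the lowest, as for the summed muscle markers. Most of the muscle sum was miR-206, and miR-133a-3p had the same highest and lowest library. miR-1-3p and miR-133b were highest in the input instead, at 13995 and 1021 CPM, against 1627 and 364 in EVEN. The high EVEN share rested on a single arm. Without miR-18a-5p and miR-17-3p, 2 arms singled out after their values were seen, the remaining 8 members took 3.78% of EVEN, 1.74% of ODD, 5.41% of LacZ and 11.1% of input reads. On that sum and on library totals both circHIPK3 pull-downs lay below LacZ, EVEN by 1.43-fold (1.38 to 1.48) and ODD by 3.10-fold (3.02 to 3.19). LacZ lay 2.05-fold below the input (2.02 to 2.08). These folds were not recomputed with other scalings, on which they depend. miR-92a-3p, the largest of the 8 in ODD and LacZ, lay above LacZ in ODD with TMM and median-of-ratios factors (log2 ratios 0.30 and 0.46).

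The make-up of the cluster does not depend on how libraries are scaled to each other, and it differed from library to library. miR-18a-5p held 72.5% of the cluster's reads in EVEN (71.7 to 73.3), 2.58% in ODD, 3.40% in LacZ and 3.16% in the input. miR-17-3p held 0.117% in EVEN, 39.1% in ODD (38.2 to 39.9), 0.885% in LacZ and 0.810% in the input. For these 2 arms LacZ and the input were close to each other, and each stood out in a single circHIPK3 pull-down. The miR-19 guides, of which miR-19b-3p led the cluster in the input, were a smaller part of it in all 3 pull-downs. Shares of a common sum are tied, so an arm that is high in a library lowers the other shares there. miR-19b-3p held 0.520% in EVEN, 2.62% in ODD, 8.54% in LacZ and 34.7% in the input. miR-19a-3p held 0.440%, 1.51%, 6.26% and 20.2% in the same 4 libraries. miR-92a-3p held 20.1% in EVEN, 41.1% in ODD, 43.2% in LacZ and 8.55% in the input. miR-20a-5p held 5.55% in EVEN, 11.8% in ODD, 35.01% in LacZ and 29.8% in the input. The most abundant member was thus miR-18a-5p in EVEN, miR-92a-3p in ODD and LacZ, and miR-19b-3p in the input.

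**Figure D1:**
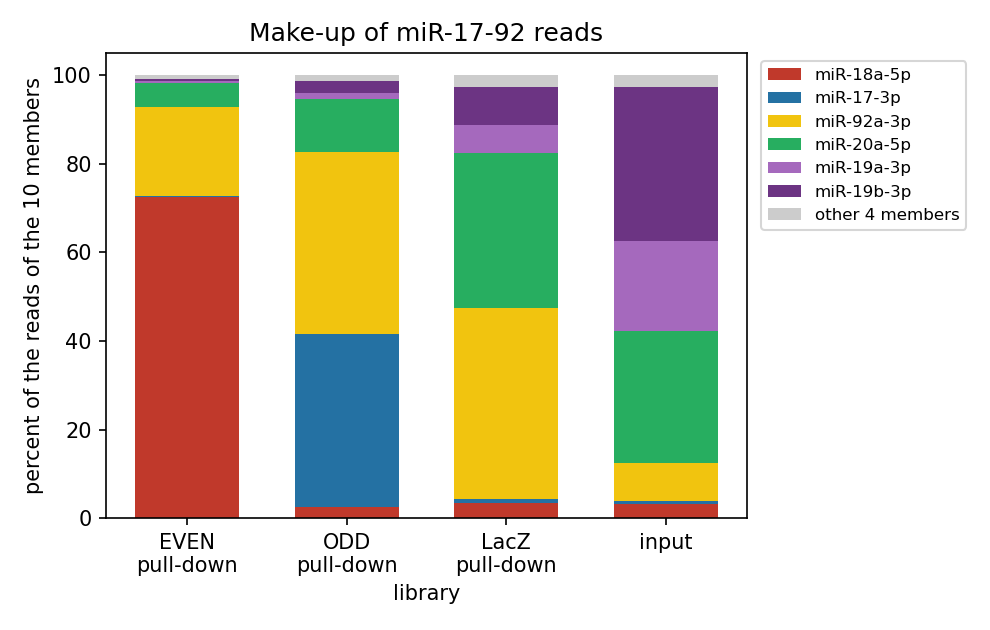
Share of the reads of the 10 members (percent, y axis) taken by each of 6 members and by the other 4 together, in the EVEN, ODD and LacZ pull-downs and the input (x axis, 1 library per bar). miR-18a-5p fills 72.5% of the EVEN bar, miR-17-3p 39.1% of the ODD bar, and the miR-19 guides are large only in the input bar.

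Among the guide arms, miR-18a-5p had 100020 CPM in EVEN, 771 in ODD, 1925 in LacZ and 3650 in the input, from 9897, 329, 819 and 10907 reads. Only the EVEN library was high, where miR-18a-5p ranked second of all miRNAs, against rank 69 in ODD, 63 in LacZ and 49 in the input. Against the input it was 27.4-fold higher in EVEN (26.7 to 28.2) and 4.73-fold lower in ODD (4.24 to 5.30). In LacZ it was 1.90-fold lower than in the input (1.77 to 2.04), under the threshold on library totals but past it with TMM (-1.52, log2) and median-of-ratios factors (-1.20) and with totals that leave out the members (-1.02). Set against LacZ, its log2 ratio was 5.70 in EVEN, the third highest of 289 tested miRNAs, and -1.32 in ODD. That is 52.0-fold higher in EVEN (48.4 to 55.9) and 2.50-fold lower in ODD (2.19 to 2.84). For a comparison of 2 libraries a miRNA had to reach 20 reads in 1 of them to be tested. It was called at 2-fold on shares of the library totals after 0.5 was added to each count. The ODD difference turns with the scaling, since median-of-ratios size factors gave a log2 ratio of 0.13 and TMM factors one of -0.03. The paralog miR-18b-5p had 10 reads in EVEN, 0 in ODD, 1 in LacZ and 0 in the input. Reads of these paralogs, which differ at a single base, may be split by the counting, and the handling of reads that fit both was not stated.

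miR-17-5p and miR-20a-5p, which share a seed, were below LacZ in both circHIPK3 pull-downs. miR-17-5p had 829 CPM in EVEN, 272 in ODD, 1291 in LacZ and 3016 in the input. It was 1.56-fold lower in EVEN than in LacZ (1.23 to 1.99) and 4.74-fold lower in ODD than in LacZ (3.88 to 5.85). miR-20a-5p was the more abundant in every library, with 7660 CPM in EVEN, 3520 in ODD, 19798 in LacZ and 34398 in the input. It was 2.58-fold lower in EVEN than in LacZ (2.40 to 2.79) and 5.62-fold lower in ODD than in LacZ (5.32 to 5.95). On library totals the order from low to high was ODD, EVEN, LacZ and input for both guides, with counting intervals that did not overlap between neighbours. The step from ODD to EVEN shrank with TMM and median-of-ratios factors. The log2 ratio of EVEN to ODD was then 0.10 and 0.08 for miR-20a-5p and 0.59 and 0.57 for miR-17-5p. The 2-fold calls depend in part on the scaling, since with median-of-ratios factors miR-20a-5p in EVEN stood at a log2 ratio of -0.96 to LacZ and miR-17-5p in ODD at -0.79.

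The miR-19 guides, which differ at a single base, had the steepest drop from input to pull-downs in the cluster among arms with reads in every library. miR-19a-3p had 606 CPM in EVEN, 450 in ODD, 3540 in LacZ and 23281 in the input. miR-19b-3p had 718 CPM in EVEN, 783 in ODD, 4831 in LacZ and 40101 in the input, where it had rank 5 of all miRNAs. On library totals the counting intervals of the EVEN to ODD ratios included no difference for both guides, at 1.35-fold (0.991 to 1.81) for miR-19a-3p and 0.916-fold (0.699 to 1.19) for miR-19b-3p. This depends on the scaling, since the log2 ratio of EVEN to ODD was -1.14 with TMM and -1.16 with median-of-ratios factors for miR-19b-3p, past the threshold, and -0.59 and -0.60 for miR-19a-3p. Relative to LacZ, miR-19a-3p was 5.84-fold lower in EVEN (4.51 to 7.69) and 7.86-fold lower in ODD (6.76 to 9.19). miR-19b-3p was 6.73-fold lower in EVEN (5.31 to 8.65) and 6.17-fold lower in ODD (5.49 to 6.94). Both stayed at least 2-fold below LacZ in ODD with TMM and median-of-ratios factors, but by less, at log2 ratios of -1.68 and -1.52 for miR-19a-3p and -1.33 and -1.17 for miR-19b-3p, against -2.97 and -2.62 on library totals. The LacZ library was itself far below the input, by 6.58-fold for miR-19a-3p (6.25 to 6.92) and 8.30-fold for miR-19b-3p (7.95 to 8.68). Of 475 miRNAs tested in LacZ against the input, miR-19b-3p was the 17th lowest and miR-19a-3p the 29th lowest.

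miR-92a-3p, the guide of the last hairpin, went the other way in the LacZ library. It had 27711 CPM in EVEN, 12280 in ODD, 24431 in LacZ and 9864 in the input, so all pull-downs were above the input. The ratio to the input was 2.81-fold in EVEN (2.70 to 2.92), 1.25-fold in ODD (1.21 to 1.28) and 2.48-fold in LacZ (2.42 to 2.53). Against LacZ it was 1.13-fold higher in EVEN (1.09 to 1.18) and 1.99-fold lower in ODD (1.92 to 2.06), both under the 2-fold threshold. With TMM factors its LacZ level was above the input by 0.71 (log2), under that threshold too. Its ODD level passed the threshold over the input with TMM factors (1.00, log2), median-of-ratios factors (1.48) and totals without the 10 most abundant miRNAs (1.34). With TMM or median-of-ratios factors its ODD value lay above LacZ instead, at log2 ratios of 0.30 and 0.46.

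miR-19b-3p and miR-92a-3p are also encoded by MIR19B2 and MIR92A2 on the minus strand of chromosome X (134169671 to 134169766 and 134169538 to 134169612), so their reads can come from either locus. The 5p arms that are specific to the chromosome X hairpins, miR-19b-2-5p and miR-92a-2-5p, had 0 reads in all 4 libraries. Their chromosome 13 counterparts miR-19b-1-5p and miR-92a-1-5p had 248 and 48 input reads. miR-20b-5p and miR-363-3p, also of the chromosome X cluster, had 0 reads in all 4 libraries, and miR-106a-5p had 6 input reads.

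Among the passenger arms, miR-17-3p had 162 CPM in EVEN, 11687 in ODD, 501 in LacZ and 935 in the input, from 16, 4984, 213 and 2794 reads. Only the ODD library was high, where it ranked 16th of all miRNAs, against rank 154 in EVEN, 124 in LacZ and 98 in the input. Its ODD level was 12.5-fold above the input (11.9 to 13.1). EVEN was 5.78-fold below the input (3.55 to 10.1) and LacZ 1.87-fold below it (1.62 to 2.16). Relative to LacZ its log2 ratio was 4.54 in ODD, the eighth highest of 300 tested miRNAs, and -1.59 in EVEN. That is 23.3-fold higher in ODD (20.3 to 26.9) and 3.10-fold lower in EVEN (1.86 to 5.52).

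The other passenger arms were sparse. miR-18a-3p had 192 CPM in EVEN, 68.0 in ODD, 150 in LacZ and 82.7 in the input, from 19, 29, 64 and 247 reads. In EVEN it was 1.28-fold above LacZ with an interval that includes no difference (0.722 to 2.16), and 2.32-fold above the input (1.37 to 3.71), a call lost with TMM factors (0.91, log2). Against LacZ it was 2.21-fold lower in ODD (1.41 to 3.56), a difference that turned with the scaling, to log2 ratios of 0.16 with TMM and 0.32 with median-of-ratios factors. miR-92a-1-5p had 5 reads in EVEN, 28 in ODD, 12 in LacZ and 48 in the input. Its ODD share was 2.33-fold above LacZ (1.15 to 5.03), an interval that reaches below 2-fold, and the call was lost with 5 added to each count. miR-19b-1-5p had 0 reads in EVEN and ODD, 26 in LacZ and 248 in the input, so against a floor of 3 reads it was at least 2.02-fold lower in EVEN than in LacZ and at least 8.69-fold lower in ODD. The lower limits of the exact intervals were 1.53-fold in EVEN and 6.58-fold in ODD, and the EVEN call was lost with 5 added to each count (-0.53, log2).

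**Figure D2:**
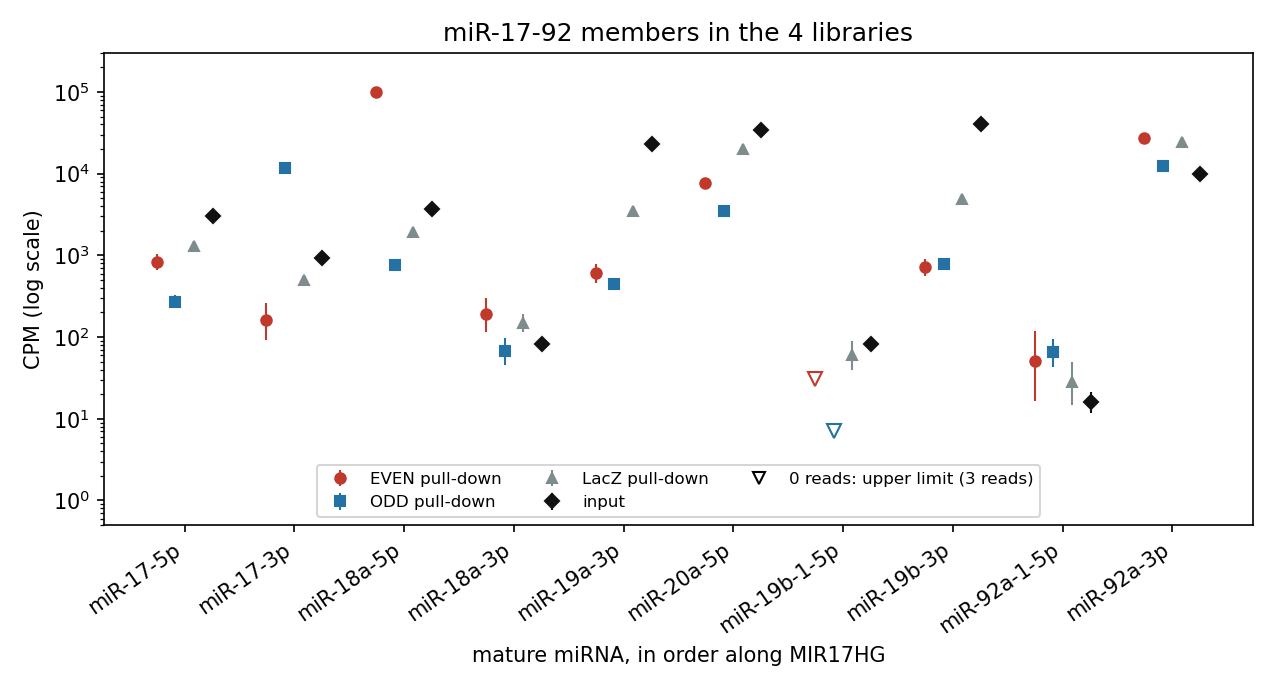
Level of each member in CPM (log scale, y axis) in the EVEN, ODD and LacZ pull-downs and the input, with members in their order along MIR17HG (x axis). Bars are 95% exact binomial intervals of 1 library each, and open triangles mark the limit that 0 reads allow. miR-18a-5p is set apart in EVEN at 100020 CPM and miR-17-3p in ODD at 11687 CPM, while the miR-19 guides lie lowest in EVEN and ODD and highest in the input.

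The comparison of each circHIPK3 probe set with LacZ asks which miRNAs the circHIPK3 probes recovered beyond control probes. With EVEN probes 1 of the 9 members tested was at least 2-fold higher, against 9.69% of all 289 tested miRNAs. At least 2-fold lower were 5 of the 9, against 51.2% of all. With ODD probes 2 of 10 were higher, against 13% of all 300 tested, and 7 of 10 were lower, against 70.3%. These shares were near those of all tested miRNAs, so the cluster as a list did not stand apart from the rest. The median log2 ratio of the members tested was -1.37 with EVEN probes and -1.78 with ODD probes, against -1.06 and -1.79 over all tested miRNAs. The members tested include arms that passed the count minimum through LacZ alone, such as miR-19b-1-5p, and miR-92a-1-5p did not reach it in EVEN against LacZ. In ODD against LacZ miR-92a-1-5p, 1 of the 2 higher members, passed it through ODD alone, with 28 reads there and 12 in LacZ. With TMM or median-of-ratios factors 4 members rather than 7 were lower with ODD probes. TMM factors moved the median of all tested miRNAs with ODD probes to -0.50.

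Relative to the median of all tested miRNAs, 3 of 9 members were at least 2-fold above it with EVEN probes, against 26.3% of all tested, and 3 at least 2-fold below it, against 25.3%. Above were miR-18a-5p by 6.76 (log2), miR-18a-3p by 1.44 and miR-92a-3p by 1.24. With ODD probes 2 of 10 members were at least 2-fold above the median, against 25.7% of all tested. They were miR-17-3p by 6.33 and miR-92a-1-5p by 2.98, the latter tested through its ODD reads alone. At least 2-fold below the median were 2 of 10, against 23.7%. These shares too were near those of all tested miRNAs. The miR-19 guides were below the median with both sets, miR-19a-3p at -1.47 with EVEN and -1.18 with ODD, and miR-19b-3p at -1.68 and -0.83.

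**Figure D3:**
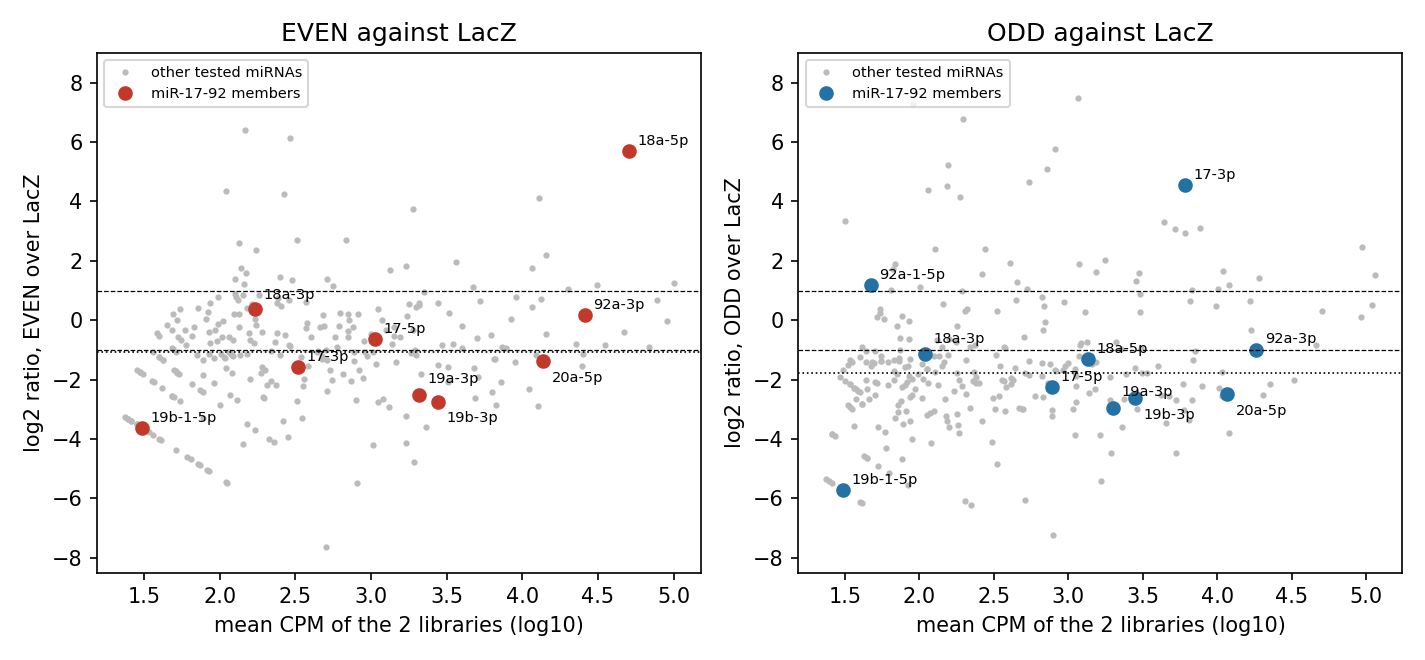
log2 ratio to LacZ (y axis) against mean CPM of the 2 libraries (log10, x axis) for EVEN (left) and ODD (right), with the members as large points and all other tested miRNAs as small grey points. Dashed lines mark 2-fold and dotted lines the median of tested miRNAs, -1.06 for EVEN and -1.79 for ODD. miR-18a-5p lies at 5.70 on the left and miR-17-3p at 4.54 on the right, above the bulk of miRNAs of like abundance.

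Directly between the probe sets, miR-18a-5p was 130-fold higher in EVEN than in ODD (116 to 145) and miR-17-3p 72.3-fold lower in EVEN (44.5 to 127). Of the 9 members tested, 5 were at least 2-fold higher in EVEN than in ODD, against 37.9% of all 203 tested miRNAs. Only miR-17-3p was at least 2-fold lower in EVEN, against 18.2% of all. miR-18a-5p had rank 2 of the 203 in favour of EVEN and miR-17-3p had rank 4 in favour of ODD. The other members higher in EVEN were miR-17-5p at 3.05-fold (2.27 to 4.08), miR-18a-3p at 2.82-fold (1.496 to 5.21), miR-92a-3p at 2.26-fold (2.15 to 2.36) and miR-20a-5p at 2.18-fold (1.99 to 2.38). None of these 4 kept its call with TMM or median-of-ratios factors, which left miR-18a-5p alone as higher in EVEN and put 3 members lower there, miR-17-3p, miR-19b-3p and miR-92a-1-5p.

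Relative to the input, 4 of 10 members were at least 2-fold higher in EVEN, against 18.3% of all 464 tested miRNAs, and 6 lower, against 52.2%. The 4 were miR-18a-5p, miR-18a-3p, miR-92a-3p and miR-92a-1-5p. The call of miR-92a-1-5p rested on 5 EVEN reads, at 3.15-fold with an interval that included no difference (0.977 to 7.86). In ODD 2 of 10 were higher than in the input, against 13% of all 468 tested, and 6 lower, against 68.6%. In LacZ 1 of 10 was higher than in the input, against 18.1% of all 475 tested, and 3 lower, against 34.3%. The guides miR-19a-3p, miR-19b-3p and miR-17-5p were the members at least 2-fold lower in all 3 pull-downs on library totals. miR-20a-5p joined them with TMM and median-of-ratios factors and miR-19b-1-5p with TMM, and miR-17-5p in LacZ was at -0.90 (log2) with totals that leave out the 10 most abundant miRNAs. The miR-19 guides were 38.4-fold and 55.9-fold lower in EVEN and 51.7-fold and 51.2-fold lower in ODD, for miR-19a-3p and miR-19b-3p in turn.

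The arms of a hairpin are read in the same library, so their ratio is free of the scaling between libraries. They come from the same precursor, except that the 3p reads given for MIR19B1 and MIR92A1 can also come from chromosome X. For MIR17 the 5p to 3p ratio was 5.12 in EVEN (82 and 16 reads), 0.0233 in ODD (116 and 4984 reads), 2.58 in LacZ (549 and 213 reads) and 3.23 in the input (9012 and 2794 reads). The usual passenger arm therefore made up 97.7% of the hairpin's reads in ODD (97.3 to 98.1), against 16.3% in EVEN (9.63 to 25.2), 28.0% in LacZ (24.8 to 31.3) and 23.7% in the input (22.9 to 24.4). The arm order was turned round in ODD alone. The arm ratio in ODD was 111-fold lower than in LacZ (86.3 to 142). Among 105 hairpins with unique arms and at least 20 reads over both arms in ODD and in LacZ, this was the largest move of an arm ratio, at 6.78 on the log2 scale. A move of at least 2-fold either way was found for 58.1% of these hairpins, and the major arm changed in 3.

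For MIR18A the 5p to 3p ratio was 521 in EVEN (9897 and 19 reads), 11.3 in ODD (329 and 29 reads), 12.8 in LacZ (819 and 64 reads) and 44.2 in the input (10907 and 247 reads). Relative to LacZ the ratio was 40.7-fold higher in EVEN (23.9 to 72.3) and 0.887-fold in ODD, with an interval that includes no difference (0.552 to 1.45). The move in EVEN had rank 4 by size among 88 hairpins, of which 64.8% moved at least 2-fold either way. The level of miR-18a-5p in EVEN and that of miR-17-3p in ODD were thus far above LacZ without a like difference in the partner arm. Between LacZ and the input, where 57.3% of 143 hairpins moved at least 2-fold, the arm ratio of MIR18A was 3.45-fold lower in LacZ (2.55 to 4.604) and that of MIR17 1.25-fold lower (1.06 to 1.48).

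For MIR20A the arm ratios of the pull-downs differed by less than counting error. miR-20a-5p over miR-20a-3p was 253 in EVEN, 136 in ODD, 130 in LacZ and 99.5 in the input, and the ratios to LacZ were 1.95-fold in EVEN (0.636 to 9.72) and 1.05-fold in ODD (0.550 to 2.22). For MIR92A1 the 3p to 5p ratio was 548 in EVEN, 187 in ODD, 866 in LacZ and 614 in the input, and it was 4.63-fold lower in ODD than in LacZ (2.28 to 10.0). For MIR19B1 the 3p to 5p ratio was 79.0 in LacZ and 483 in the input, and the 5p arm had 0 reads in EVEN and ODD. For MIR19A the 5p arm had 0 reads in EVEN and ODD, 1 in LacZ and 44 in the input, so the ratio could not be resolved in the pull-downs.

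**Figure D4:**
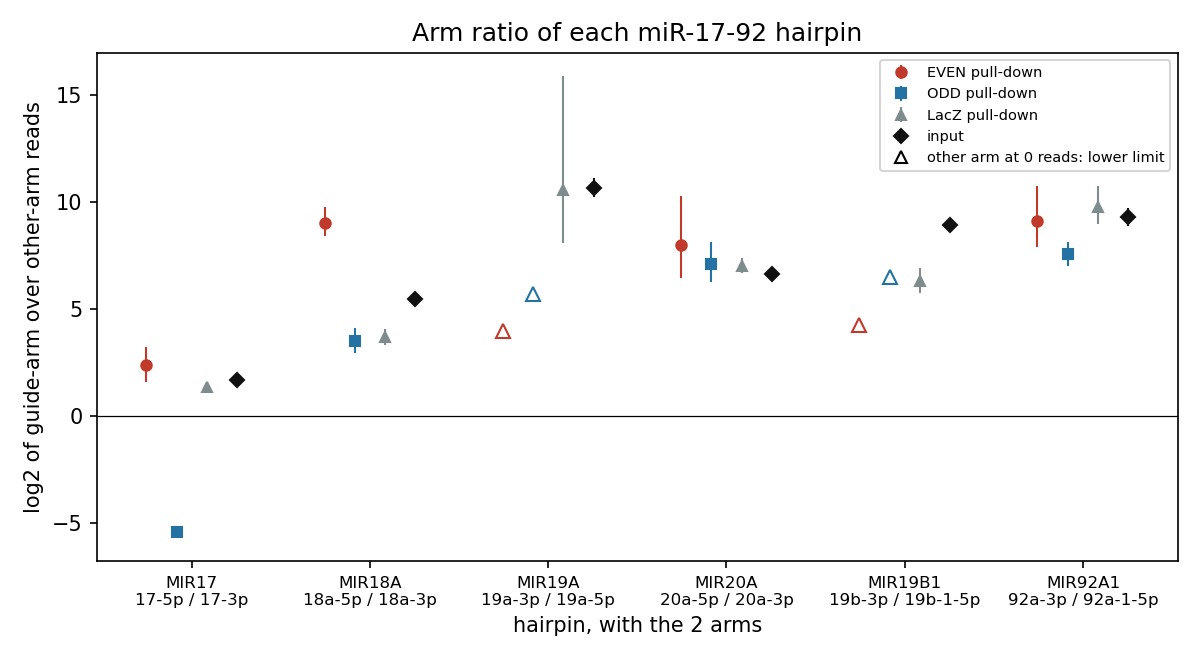
log2 of guide-arm over other-arm reads (y axis) for the 6 hairpins (x axis) in the EVEN, ODD and LacZ pull-downs and the input, with 95% exact binomial intervals of 1 library each. Open triangles are lower limits where the other arm had 0 reads. MIR17 lies below 0 in ODD alone, and MIR18A is highest in EVEN.

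Exon 2 of HIPK3, at 33286413 to 33287511 on the plus strand of chromosome 11, is 1099 nt long, and each mature sequence was searched for its longest unbroken Watson-Crick match to it. miR-17-3p had a run of 10 nt, the longest of the members, and at least 10 nt was found for 1.44% of the 2367 listed miRNAs with a sequence. The run is shown in capitals in the miRNA and, with 6 bases on each side, in the exon, where it lies in coding sequence at 33286464 to 33286473.
miR-17-3p: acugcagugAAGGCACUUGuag
HIPK3 exon 2: cucaguCAAGUGCCUUuuguag
miR-17-3p was also the only member whose whole seed had its complement in the exon, once, at 33286676 to 33286682, and 7.39% of the listed miRNAs with a sequence had such a seed match. miR-92a-3p had a run of 9 nt, found or exceeded in 5.28% of miRNAs. miR-18a-5p had a run of 7 nt, which is also the median over all miRNAs. Runs of the same letters as the exon, which would pair with an antisense probe, were 6 or 7 nt in all 10 members, with a median of 7 over all miRNAs. A match of letters is a description and not a binding site, and the matches rest on the exon and not on the probes. The exon was searched as a linear sequence, so a match across the join of its ends in the circle could not be found.

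The same-seed relatives encoded elsewhere in the genome were 10 miRNAs on a fixed list, of which 5 could be tested against LacZ. None of these 5 was higher in either probe set, and 2 were lower with EVEN and 4 with ODD probes, near the 51.2% and 70.3% of all tested miRNAs. miR-18b-5p, of the miR-18a seed group, had too few reads to be tested, with 10 in EVEN, 0 in ODD and 1 in LacZ. Its EVEN share was 43.0-fold above LacZ with a very wide interval (6.12 to 1866). Reads of miR-18b-5p and miR-18a-5p may be split by the counting. miR-93-5p, of the miR-17 seed group, had 4009 reads in EVEN, 5543 in ODD, 22505 in LacZ and 149868 in the input. It was 1.31-fold lower in EVEN than in LacZ and 4.07-fold lower in ODD. miR-25-3p, of the miR-92a seed group, was 1.38-fold lower in EVEN and 3.35-fold lower in ODD, and miR-32-5p 10.6-fold and 30.4-fold lower. miR-92b-3p, of the same seed group, was 1.47-fold higher in EVEN (0.920 to 2.28) and 1.16-fold lower in ODD (0.832 to 1.61), both with intervals that include no difference. miR-106b-5p, of the miR-17 seed group, had 5 reads in EVEN, 17 in ODD and 51 in LacZ, and the interval of its 2.37-fold lower EVEN share included no difference (0.953 to 7.62).

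Over the 4 libraries, likeness of profile was measured as the Euclidean distance of log2 shares, each miRNA centred on its own mean, among 302 other miRNAs with a read in every library and 20 or more in at least 1 of them. Nearest to miR-18a-5p were miR-489-3p (distance 1.58), let-7e-3p (1.95) and let-7g-3p (2.77). miR-489-3p had 50, 3, 11 and 254 reads in EVEN, ODD, LacZ and the input, so these neighbours rest on far fewer reads than miR-18a-5p. Nearest to miR-17-3p were miR-1250-5p (0.73), miR-503-5p (1.36) and miR-214-3p (1.61). miR-1250-5p had 1 read in EVEN, 597 in ODD, 17 in LacZ and 165 in the input. miR-503-5p had 566 CPM in EVEN, 13741 in ODD, 1580 in LacZ and 3574 in the input, and miR-214-3p had 424, 9349, 1112 and 725 CPM in the same libraries. Nearest to the summed cluster were miR-548k (0.12), miR-504-5p (0.28) and miR-28-3p (0.59), of which miR-548k and miR-504-5p had 2 reads each in EVEN and in ODD.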

How the data were processed

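The values are raw counts for each listed mature miRNA in 4 libraries, deposited by the authors. The CPM beside them equal the counts scaled by the library total. The counts are called reads here, and whether they are of reads or of molecules was not stated. Per the labels' protocols, a QIAseq kit for miRNA was used and the libraries were read single-end on a NovaSeq. The submitters' processing notes name GRCh38. No source used here states the trimming, aligner, annotation, strand, or treatment of multi-mapping reads and molecular identifiers. Had reads rather than molecules been counted, the counting intervals would be too short.

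Every group has 1 library, so no test over replicates was run. Log2 ratios were taken of (count + 0.5) over the total of counted miRNA reads, across the whole table (Python 3.11.15, scipy 1.17.1). A miRNA needed 20 reads in either library, and the threshold was 2-fold. Folds are ratios of shares without the 0.5, with 95% exact conditional intervals, and arm ratios have intervals of the conditional odds ratio. A count of 0 was given a floor of 3 reads. Shares do not measure absolute amounts. Sequences of miRNAs are from RefSeq (GRCh38.p14), and exon 2 and the host transcripts from GENCODE release 29. The log2 ratios and fold intervals of the comparisons among pull-downs were tested on counts simulated with counting error only. The arm ratio, sequence, profile and base composition steps were not tested in this way.

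Other settings tried were the scalings TMM (edgeR 4.0.16) and median-of-ratios (DESeq2 1.42.0), library totals that leave out the top 10 miRNAs or the members, minimums of 1 or 100 reads, an addition of 5 to each count, deposited CPM plus 1, and a 4-fold threshold. The text names all members, their partner arms, same-seed relatives, marker miRNAs and, by profile, the 3 nearest miRNAs. Members, lists and rules were chosen with earlier results of these data known.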

Additional observations from a re-analysis of the deposited data

Results flagged for a closer look

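On library totals miR-18a-5p was on opposite sides of LacZ in the 2 circHIPK3 pull-downs. Its log2 ratio was 5.70 with EVEN probes and -1.32 with ODD probes. The ODD value was -0.03 with TMM and 0.13 with median-of-ratios factors, so the opposite sides depend on the scaling.

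miR-17-3p was on opposite sides of LacZ in the reverse order of probe sets. Its log2 ratio was -1.59 with EVEN probes, from 16 reads, and 4.54 with ODD probes. For both arms the difference between probe sets was not tested, since there is 1 library of each and both are set against the same LacZ library.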

How the results depend on the processing

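No paired analysis was possible because each group has 1 library. Of 454 recomputed log2 ratios of members, 409 had the same 2-fold call and 45 changed it. The calls of miR-18a-5p in EVEN and of miR-17-3p in ODD, and of miR-17-3p in EVEN against ODD, were the same in all 48 recomputed values. Both the 409 and the 48 include values from the other minimums of reads. A minimum decides which miRNAs are tested and leaves each ratio as it was. Values from those settings could therefore not change call and say nothing on stability. Against LacZ, miR-18a-5p ranged from 5.69 to 6.12 in EVEN and miR-17-3p from 4.50 to 5.99 in ODD. Of the changes of sign among called members, miR-18a-3p in ODD against LacZ went to 0.16 with TMM and 0.32 with median-of-ratios factors, and miR-18a-5p there to 0.13 with the second of these. Each set of factors adds the same amount to every ODD ratio to LacZ, and the changes of sign are that shift. Why the factors differ from library totals was not tested.

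The larger moves in the counts of members past the threshold were as follows. Smaller moves are left out of this list. Examples are 4 lower in EVEN against LacZ with median-of-ratios factors and 8 lower in ODD against LacZ with totals without the members. In ODD against LacZ, TMM and median-of-ratios factors each gave 4 lower, and a minimum of 100 reads, 5 added or a 4-fold threshold each gave 1 higher. In EVEN against LacZ, a 4-fold threshold left 3 lower. In EVEN against ODD, TMM and median-of-ratios factors each gave 1 higher and 3 lower, totals without the 10 most abundant miRNAs 3 higher, and a 4-fold threshold 1 higher. A 4-fold threshold left 1 higher in EVEN against the input, and a minimum of 100 reads 1 higher in ODD against the input. In LacZ against the input, TMM factors gave 0 higher and 7 lower, median-of-ratios factors 6 lower, totals without the 10 most abundant miRNAs 3 higher, 5 added 2 higher and a 4-fold threshold 0 higher. Stricter thresholds and minimums lower counts by construction.

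Without miR-92a-3p and miR-19b-3p the cluster took 10.95% of EVEN, 1.68% of ODD, 2.73% of LacZ and 6.55% of input reads. miR-18a-5p then held 91.3% of the cluster in EVEN and miR-17-3p 69.4% in ODD. With 5 added to each arm, the log2 arm ratio of MIR19A was 3.70 in EVEN, 5.30 in ODD and 7.98 in LacZ, and that of MIR19B1 3.93 in EVEN and 6.08 in ODD, since the other arm had 0 or 1 reads. With Pearson correlation as the measure, 1 of the 3 nearest miRNAs of the cluster sum was shared. The EVEN library is the shallowest, and values from under 20 reads there have the widest intervals.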

Other observations

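Base composition moved with recovery over all miRNAs. The Spearman correlation of GC content with the log2 ratio to the input was 0.51 in EVEN (425 miRNAs), 0.50 in ODD (428) and 0.43 in LacZ (434), as a description across miRNAs that share libraries and the same input. Against LacZ it was 0.33 in EVEN and 0.28 in ODD. Among the guides, miR-19a-3p and miR-19b-3p, the lowest in the pull-downs relative to the input, had 34.8% and 39.1% GC, and miR-92a-3p, the only guide above the input in all 3 pull-downs, had 54.5%. miR-20a-5p also had 39.1% GC and was 4.49-fold below the input in EVEN, against 55.9-fold for miR-19b-3p. miR-17-5p, at 47.8% GC, lay further below the input than miR-20a-5p in ODD and LacZ, and less far below it in EVEN. miR-18a-5p, at 43.5% GC, was 27.4-fold above the input in EVEN and below it in ODD and LacZ. The part of base composition in these differences was not tested.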
